A study of Mus musculus with 4 samples.

Results

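miR-205 and miR-203, the miRNAs of basal and stratified epithelium, were followed in HC11 cells, a clonal line of mouse mammary epithelium that keeps stem-like features, before and after lactogenic differentiation. Their probes were taken by exact name (mmu-miR-205 and mmu-miR-203), which gave 2 of the 700 mouse miRNA probes on the array; passenger strands were left out. Differentiated cells had lost epidermal growth factor and been lowered to 2% fetal bovine serum for 48 h, and then received 100 nM dexamethasone and 1 µg/mL ovine prolactin for 72 h. Proliferating cells were kept in RPMI 1640 with 10% serum, glutamine, insulin, epidermal growth factor and gentamicin and were collected after 48 h. There were 2 samples per stage on 2 arrays, with 1 sample of each stage in opposite dyes on each array and the dyes swapped between them. The labels do not tell separate cultures from repeat preparations, so the p-values reflect a spread among samples that could be purely technical.

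miRNAs guide Argonaute proteins to messenger RNAs, mostly through pairing of their seed, and lower the output of those messages. miR-205 is known from the basal and progenitor cells of the mammary gland and from stratified epithelia, and it represses ZEB1 and ZEB2, transcription factors that drive epithelial cells toward a mesenchymal state. miR-203 is known from skin, where it accumulates as keratinocytes leave the basal layer and represses p63, the factor that keeps basal cells in a proliferative state.

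The sequences read by the probes are shown because they fix which arm of each hairpin was measured and how far each probe stands from the other probes. The mature forms below run 5′ to 3′, with the seed (bases 2 to 8) in capitals. Both targets in the deposited spot tables were identical to a RefSeq mature sequence, so the probes measured the 5p arm of Mir205 and the 3p arm of Mir203.
miR-205: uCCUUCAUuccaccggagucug
miR-203: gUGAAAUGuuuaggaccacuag
In the hairpins from RefSeq (GRCm38.p6) the probed arm is in capitals.
Mir205 hairpin: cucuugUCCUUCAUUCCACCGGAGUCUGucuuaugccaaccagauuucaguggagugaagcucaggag
Mir203 hairpin: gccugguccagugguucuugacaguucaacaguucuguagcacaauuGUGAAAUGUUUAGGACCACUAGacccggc
The mature miR-205 sequence lies at chr1:193507503-193507524 on the minus strand of GRCm38.p6, inside the span of the long noncoding RNA gene Mir205hg. The mature miR-203 sequence lies at chr12:112130927-112130948 on the plus strand, where a further annotated miRNA gene, Gm51289 (synonym Mir203b), overlaps its hairpin. Whether these positions are exonic in a host transcript was not analysed here.

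The 2 seeds differ, and neither is shared by any of the other 699 probes. The 2 mature sequences are 15 edits apart (substitutions, insertions or deletions). The nearest target to miR-205 was that of miR-682 at 8 edits, and 6 targets stood 9 edits from miR-203, among them those of miR-291b-5p and miR-805. Of its 22 bases miR-205 has 12 G or C (54.5%), and miR-203 has 9 (40.9%).

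mmu-miR-205 was bright in every sample of both stages. Its mean spot intensity over the local background was 4002 and 12560 units in differentiated replicates 1 and 2, against 3602 and 3132 units in proliferating replicates 1 and 2. Differentiated replicate 2 stood apart from the other 3 samples, and that whole channel was brighter: the median of the 118 probes detected in all 4 samples was 562.1 and 2316 units in the differentiated samples and 718.3 and 663.4 units in the proliferating ones. As a multiple of that median, miR-205 was at 7.12 and 5.42 in the differentiated samples and at 5.01 and 4.72 in the proliferating ones. On this scale the stages did not overlap, but the gap between the lowest differentiated and the highest proliferating sample was small beside the gap between the differentiated samples. How many of all probes separate on this scale was not counted, so the separation is not read as particular to miR-205.

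The 5 spots of miR-205 agreed closely within a sample. Their SD was 10.5% and 3.85% of the mean in the differentiated samples and 5.29% and 12.2% in the proliferating ones. All 5 spots exceeded the detection limit in each sample, a limit set at the mean of the empty spots plus 3 of their SDs. The mean signal was 516.2 and 80.2 times that limit in the differentiated samples and 273.0 and 58.3 times in the proliferating ones, so the signal over background did not limit the miR-205 measurement.

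mmu-miR-203 was dim at both stages and close to the detection limit in the proliferating cells. Its mean spot intensity over background was 38.0 and 290.8 units in differentiated replicates 1 and 2, against 16.9 and 45.2 units in proliferating replicates 1 and 2. The limit was 7.75 and 156.5 units in the differentiated samples and 13.2 and 53.7 units in the proliferating ones. miR-203 was therefore at 4.90 and 1.86 times the limit in the differentiated samples, and at 1.28 and 0.842 times the limit in the proliferating ones.

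All 5 of its spots were above the limit in both differentiated samples, whereas 4 spots were above it in proliferating replicate 1 and 2 spots in proliferating replicate 2. With at least 3 spots required, miR-203 was detected in 3 of the 4 samples and missed in proliferating replicate 2. A limit of 5 SDs of the empty spots, or a demand for all 5 spots, left it detected in the 2 differentiated samples alone, and a limit of 2 SDs gave detection in all 4. The SD of its 5 spots was 32.5% and 23.2% of the mean in the differentiated samples, against 19.5% and 20.9% in the proliferating ones.

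**Figure D1:**
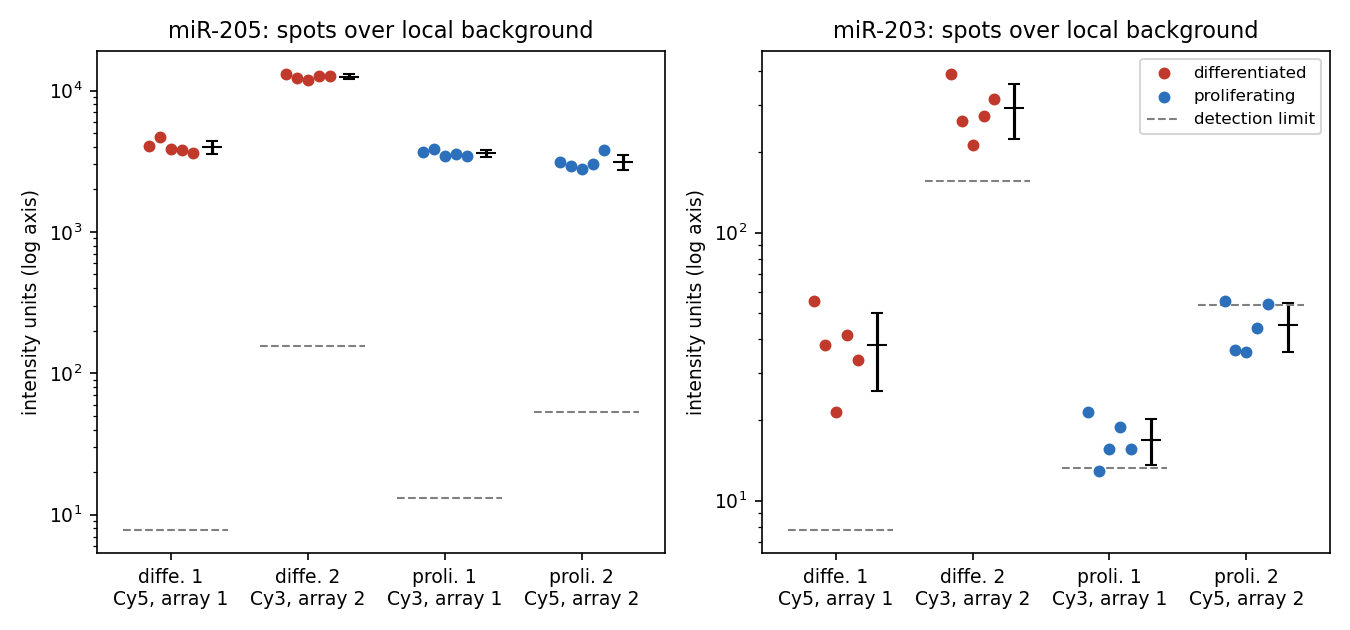
Spot intensity over the local background (log axis, intensity units) for miR-205 (left) and miR-203 (right) in differentiated replicates 1 and 2 and proliferating replicates 1 and 2; points are the 5 spots, the bar is their mean ± SD, and the dashed line is the detection limit of that sample. miR-205 lies far above the limit in all 4 samples, while miR-203 lies at 1.28 and 0.842 times the limit in the proliferating samples.

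The order of probes by brightness within a sample does not depend on how the channels are scaled, so the rank of 1 probe can be followed across samples; ranks of different probes are no measure of their relative amounts, because probes differ in how well they bind. miR-205 kept its place, ranking 30 and 28 of 700 in the differentiated samples and 28 and 29 in the proliferating ones. The ranges overlapped. In the authors' value table, a deposited table of processed intensity, its ranks were 30 and 28 in the differentiated samples and 29 and 32 in the proliferating ones.

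miR-203 ranked 126 and 122 in the differentiated samples, against 178 and 151 in the proliferating samples. Proliferating replicate 2 detected 138 probes, so the rank of 151 there lies among probes not above the limit and is only approximate. The ranks did not overlap between the stages, and the authors' table gave the same order with ranks of 122 and 129 in the differentiated samples against 174 and 159 in the proliferating samples. The share of all probes whose ranks separate was not counted, so the separation is not read as particular to miR-203. By another measure, the ratio within each array, 138 of the 172 tested probes had the same sign on both arrays. No test was applied to ranks, because 0.333 is the smallest p that exact permutation of 2 and 2 samples allows.

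**Figure D2:**
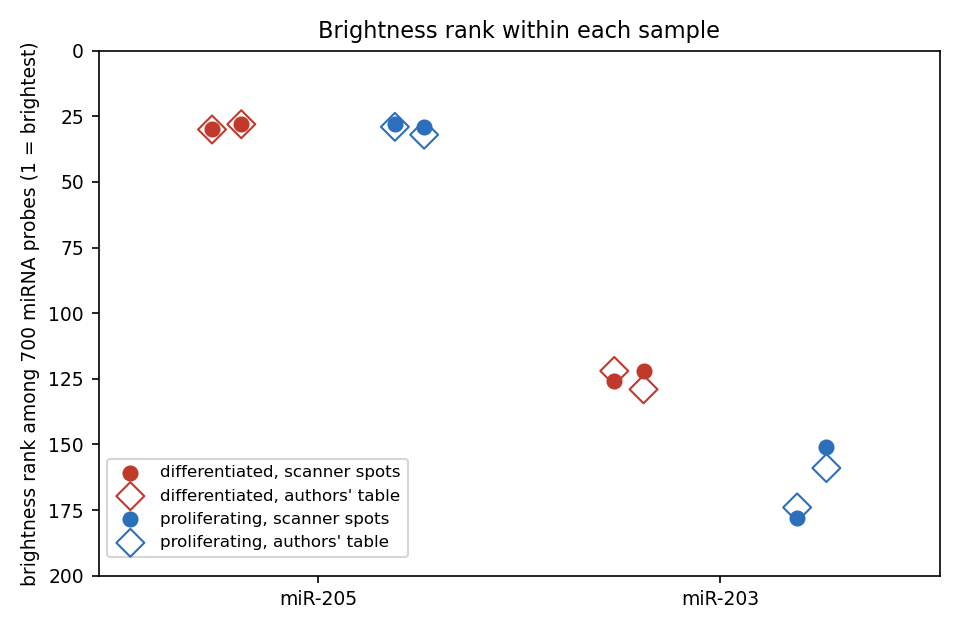
Brightness rank among 700 miRNA probes within each sample (1 is the brightest, at the top), with differentiated samples left of proliferating samples for each miRNA; filled circles are scanner spots and open diamonds the authors' table. miR-205 sits between ranks 28 and 32 in every sample, and miR-203 sits at 122 to 129 in differentiated and 151 to 178 in proliferating samples.

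The comparison between stages asked whether either miRNA changed as the stem-like cells differentiated. Neither difference passed the threshold: limma called 0 of the 2 (0 also at an unadjusted p under 0.05), while it called 30.2% of the 172 tested probes, 16.9% higher and 13.4% lower in the differentiated cells. Values are log2 ratios of differentiated over proliferating cells after loess normalization, relative to the bulk of the miRNA probes. Their median was -0.0046 over all 700 probes and 0.11 over the 172 tested ones.

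miR-205 averaged 12.37 ± 0.25 in differentiated and 12.17 ± 0.28 in proliferating cells on the log2 scale of normalized intensity (SD, n = 2 each). The log2 ratio was 0.20 ± 0.52 (SD, n = 2 arrays), a 1.15-fold difference with a limma adjusted p of 0.609. The 95% interval of the fit ran from -0.66 to 1.07, that is, from 0.633-fold to 2.10-fold. Both a gain and a loss of miR-205 lie inside that interval.

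The arrays disagreed on the sign for miR-205. The ratio was -0.17 on array 1 and 0.57 on array 2, with SDs over the 5 spots of 0.07 and 0.14. The 5 spots ran from -0.22 to -0.06 on array 1 and from 0.33 to 0.65 on array 2, so the arrays differed by more than the spots within either array. Read as Cy5 over Cy3, miR-205 was at -0.17 and -0.57, below 0 on both arrays. The part of its ratio that follows the dye, or equally a difference between the replicates, was 0.37 in size, against a median of 0.21 over the tested probes, and 47 of the 172 had a larger one. With 2 arrays the dye and the replicate cannot be told apart. Without replicate 2 the direction of miR-205 turned, to -0.17.

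miR-203 averaged 7.35 ± 0.10 in differentiated and 6.86 ± 0.10 in proliferating cells (log2 normalized intensity, SD, n = 2 each). Its log2 ratio was 0.49 ± 0.003 (SD, n = 2 arrays), a 1.40-fold difference, with 0.49 on array 1 and 0.49 on array 2. limma gave an adjusted p of 0.136 and a 95% interval from -0.06 to 1.04 (0.956-fold to 2.06-fold). The near-zero SD does not make this a precise value, since each array's mean rests on 5 spots with an SD of 0.15 and 0.12. In the fit 103 of the 172 tested probes had a larger log2 ratio in size, and 139 had a larger one than miR-205. miR-203 was tested because both differentiated samples detected it, and such a filter favours a ratio above 0.

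The size of the miR-203 value depended on the offset and the correction method. The reported fit adds an offset of 50 units to each corrected spot, which was more than the whole miR-203 signal in 3 of the 4 samples, and this pulls its ratio toward 0. An offset of 16 gave a log2 ratio of 0.69 (limma adjusted p = 0.0751), and a constant background in place of the local one left it at 0.50 (adjusted p = 0.125). Before normalization the signal over background was 2.25-fold higher in the differentiated sample on array 1; on array 2 the proliferating sample lay below its limit, and no fold is given. With plain subtraction in place of normexp and no offset, the log2 ratio was 1.32 and passed the threshold (limma adjusted p = 0.0269). That fit called 49.4% of the tested probes. Over the alternatives, limma adjusted p-values ran from 2.14e-08 to 0.476.

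In the authors' value table miR-203 stood at 86.6 and 72.2 units in the differentiated samples and at 35.7 and 52.0 units in the proliferating samples. The stages did not overlap there, which was not counted over all probes and is not read as particular to miR-203. The fit on that table gave a log2 ratio of 0.88 with a limma adjusted p of 0.0341, where it called 60.5% of the tested probes. The arrays differed more in that table, with 2.42-fold on array 1 and 1.39-fold on array 2. miR-205 stood at 4630 and 6217 units in the differentiated samples and at 4687 and 4229 units in the proliferating samples of the same table. Its stages overlapped, with 0.988-fold on array 1 and 1.47-fold on array 2, and its log2 ratio was 0.27 (limma adjusted p = 0.585).

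**Figure D3:**
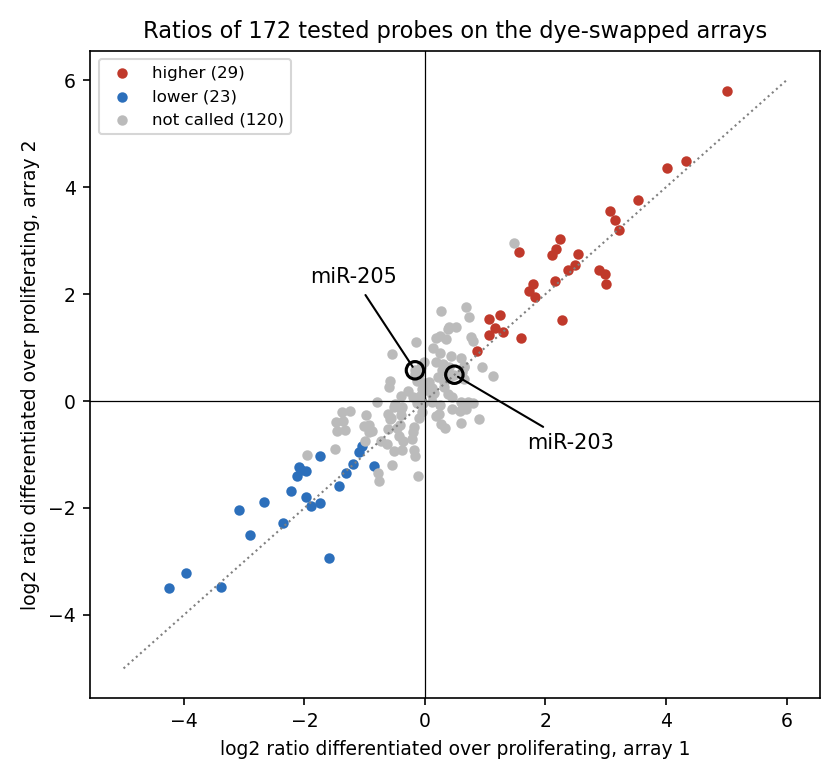
Log2 ratio of differentiated over proliferating cells on array 1 (horizontal) against array 2 (vertical) for the 172 tested probes, coloured by call; the dotted line marks equal ratios. miR-205 lies left of 0 and above 0 at -0.17 and 0.57, and miR-203 lies on the line at 0.49, both among the probes that were not called.

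Ratios such as these carry no absolute scale. Spike control probes read lower in the differentiated channel, with a mean log2 ratio of -1.37 on array 1 and -1.43 on array 2 over 15 detected probes. Centring on them adds 1.40 to every mean ratio and takes the median of the tested probes to 1.51. miR-205 then had a value of 1.60 and miR-203 of 1.89, and 84.9% of the tested probes were called. Relative to the median probe both kept their distance, 0.09 for miR-205 and 0.38 for miR-203. That fit holds no error for the spikes, and the amounts of spike were not used here. Without loess and centred on the median of all miRNA spots, the values were 0.95 for miR-205 and 0.79 for miR-203, with adjusted p-values of 0.119 and 0.199 in limma.

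**Figure D4:**
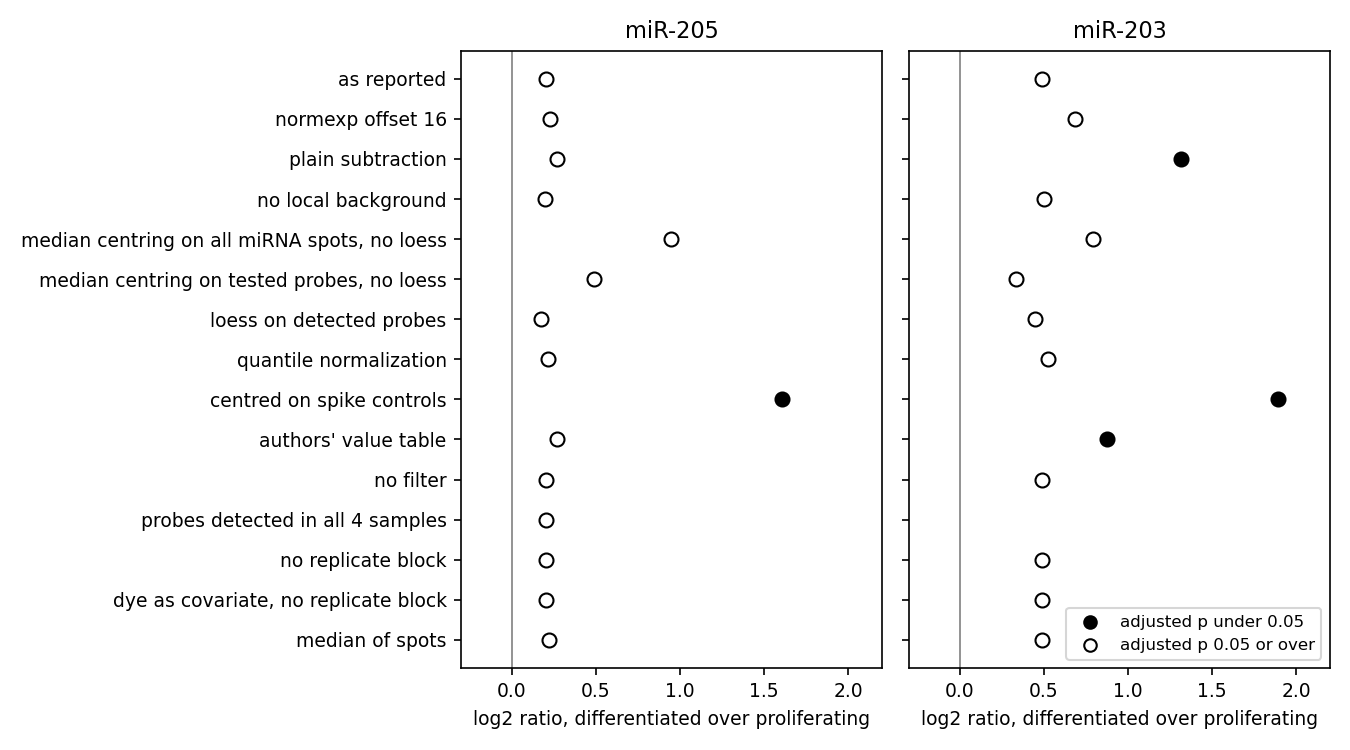
Log2 ratio of differentiated over proliferating cells for miR-205 (left) and miR-203 (right) as reported and under each alternative that kept all samples; filled points have an adjusted p under 0.05. miR-205 stays at 0.17 to 0.95 except for 1.60 with spike centring, and miR-203 is filled with plain subtraction, spike centring and the authors' table.

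Among the other epithelial miRNAs that target ZEB1 and ZEB2, the stages differed strongly. Of the 5 listed, 4 were tested, and miR-200a, miR-200b and miR-429 rose in the differentiated cells, where 16.9% of all tested probes were called higher. The list median was 2.05, against 0.11 over all tested probes. miR-200a, encoded beside miR-200b and miR-429, had 3226 and 8754 units in the differentiated samples, against 208.4 and 166.7 units in the proliferating samples. Its log2 ratio was 3.65 ± 0.16 (SD, n = 2 arrays; limma adjusted p = 0.00873). In these units the stages did not overlap for miR-200a. They did not overlap for miR-205 either, at 4002 and 12560 units in the differentiated and 3602 and 3132 units in the proliferating samples. These units are not normalized, and the whole channel of differentiated replicate 2 was brighter. How many of all probes separate in these units was not counted. The log2 ratio of miR-205 was 0.20 ± 0.52. miR-200c, of the cluster that also holds miR-141, was detected in the differentiated samples alone and was not called. Its log2 ratio was 0.75 ± 0.57, with 0.35 on array 1 and 1.15 on array 2 (limma adjusted p = 0.146). Measured against the lowest detected signal, its mean in the differentiated samples was 1.31-fold higher, a bound that carries no error. miR-141 was not well above background in any sample. Whether miR-205 differs from the miR-200 family in its response was not tested.

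Of 6 miRNAs known from skin and stratified epithelium beside the pair, 4 were tested and 0 were called by limma, where 30.2% of all tested probes were called, so the count says nothing particular about these miRNAs. Their median log2 ratio was -0.13. At an unadjusted p under 0.05 the count was 1, miR-24. miR-125b-5p, a miRNA of skin stem cells, had 10944 and 20087 units in the differentiated samples and 5129 and 5667 units in the proliferating samples. Its log2 ratio was 0.53 ± 0.17 (adjusted p = 0.134). miR-24, which acts in keratinocyte differentiation, was at -0.73 ± 0.02 (adjusted p = 0.0686). miR-31 was at -0.43 ± 0.26 and miR-34a, a target gene of p53, at 0.17 ± 0.48. miR-184 and miR-214 were not detected in any sample. Like miR-205, miR-34a was below 0 on array 1 (-0.17) and above it on array 2 (0.51).

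The list of mammary stem and progenitor miRNAs had 7 members, of which 6 were tested, 1 rose and 1 fell, with a median of -0.08. These counts are near the shares over all tested probes, 16.9% higher and 13.4% lower. miR-146b rose, being undetected in the proliferating cells and at least 17.2-fold higher in the differentiated ones (adjusted p = 0.00873). miR-93, a miRNA of the miR-106b-25 cluster, fell by 2.57 ± 0.74 on the log2 scale (adjusted p = 0.0241). The members that were not called were miR-22 at -0.62 ± 0.52, miR-31 as above, let-7c at 0.26 ± 0.59 and miR-99a at 0.63 ± 0.29. miR-193b was not detected. With spike centring the negative values of miR-24, miR-31 and miR-22 turned positive, as they did with median centring on all miRNA spots. Spike centring called higher every tested member of both lists that limma had not called here. In the opposite direction, miR-24 was called lower with loess on detected probes and with no filter. miR-22 was called lower in the authors' table and after quantile normalization. miR-125b-5p and miR-99a were each called in 4 of 14 alternatives and let-7c in 3. miR-34a turned negative with loess on the detected probes and with quantile normalization.

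**Figure D5:**
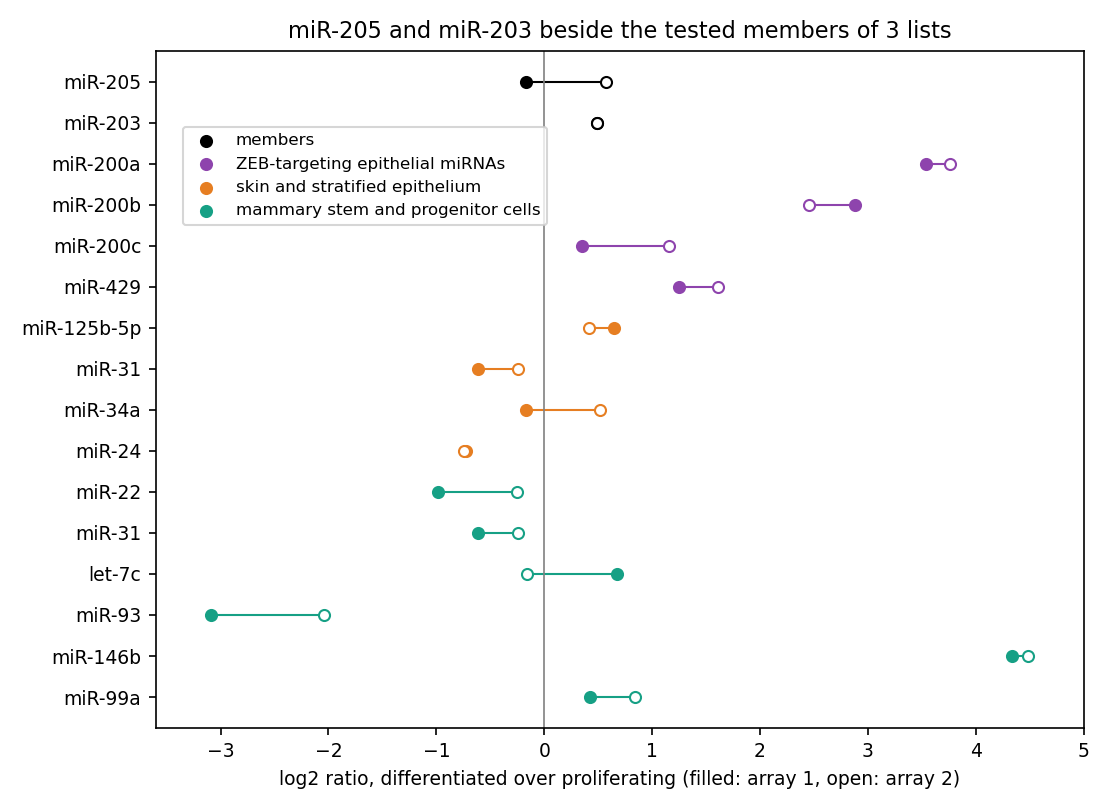
Log2 ratio of differentiated over proliferating cells on array 1 (filled) and array 2 (open) for miR-205, miR-203 and the tested members of 3 lists, with miR-31 shown in both lists that hold it. miR-200a, miR-200b, miR-429 and miR-146b lie to the right, miR-93 to the left, and miR-205 and miR-203 from -0.17 to 0.57.

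The probes most like each miRNA were found by the distance between log2 intensities in the 4 samples, each probe centred on its own mean, over the other 171 tested probes, with passenger strands (here let-7b* near miR-205 and miR-9* near miR-203) left out. miR-671-5p, at a distance of 0.16, miR-290-5p at 0.24 and miR-181c at 0.32 came closest to miR-205. Each of these was detected in 3 of the 4 samples, while miR-205 lay far above the limit in all 4. let-7e at 0.12, miR-192 at 0.13 and miR-125b-5p at 0.15 came closest to miR-203, with log2 ratios of 0.45 ± 0.12, 0.52 ± 0.17 and 0.53 ± 0.17. miR-192 was detected in 3 of the 4 samples, and let-7e and miR-125b-5p in all 4. The ratios of all these probes resemble those of the pair because they were chosen for it.

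The samples were checked against markers of other cell types. Of the 5 epithelial miRNAs, miR-200a, miR-200b and miR-429 were detected in all 4 samples, miR-200c in the 2 differentiated samples and miR-141 in none, whereas 0 of 4 blood miRNAs and the endothelial miR-126-3p were detected in any. Of 4 mesenchymal miRNAs, miR-143 and miR-145 were detected in both differentiated samples and in neither proliferating one. miR-143 rose, by at least 1.51-fold (limma adjusted p = 0.0474), a call lost with median centring on the tested probes and with dye as a covariate. miR-145, at 0.98 ± 0.30, was not called (limma adjusted p = 0.0564), though 11 of 13 alternatives called it. The summed signal of that list was 104.5 and 680.1 units in the differentiated samples, against 24.7 and 57.8 units in the proliferating samples, and miR-199a-3p and miR-214 were not detected. This moved in the same direction as miR-203. Of the muscle list miR-206 was detected in 3 samples and fell by 1.02 ± 0.26 on the log2 scale (limma adjusted p = 0.0483), a call made in 9 of 13 alternatives and with the sign turned by spike centring. That list had a summed signal of 17.8 and 142.2 units in the differentiated samples and 101.8 and 139.0 units in the proliferating ones. Of the neuron list miR-9 was detected in the differentiated samples alone. It was not called, at 0.73 ± 0.68 (limma adjusted p = 0.185), and 6 of 13 alternatives called it. That list had a summed signal of 13.1 and 422.5 units in the differentiated samples against 7.77 and 23.6 units in the proliferating samples. The sums of these lists are not normalized and include undetected probes, and the whole channel of differentiated replicate 2 was brighter. The part of these signals in the miR-203 value was not tested.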

How the data were processed

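The authors deposited the mean spot intensity in 1 dye channel per sample, background included and not normalized, per the file headers (3968 spots, 3500 of them for 700 miRNA probes in 5 spots each, and 180 empty). Per the labels' protocols, small RNAs were tailed, tagged, dye-stained and hybridised by LC Sciences. The authors also deposited a table of processed intensity per probe, on a linear scale, with medians of 15.1 and 13.9 in the differentiated and 13.9 and 13.6 in the proliferating samples; how it was scaled and centred stays unknown, as does any background handling. Each of its columns matched its own sample best (r of 0.985 to 0.997 over the tested probes). The image software was not given in the sources used here, nor was the genome build.

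Background was a local one, the 20th percentile over every spot up to 7 rows and columns away, corrected with normexp (offset 50), followed by loess within each array (span 0.3, controls at weight 0), in limma 3.58.1 under R 4.3.3. Log2 ratios of a probe's spots were averaged. The 172 probes that both samples of a stage detected, for either stage, were fitted with lmFit and eBayes on 2 arrays (1 residual degree of freedom, two-sided, Benjamini-Hochberg over all tested probes, threshold 0.05). Of the named probes, miR-203, miR-200c, miR-143, miR-145, miR-146b, miR-9, miR-671-5p, miR-290-5p, miR-181c and miR-192 entered through the differentiated stage alone. miR-206 entered through the proliferating stage alone. For such probes the filter favours a higher value at that stage. Log2 intensities per sample are after Aquantile.

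Same-numbered samples, of opposite stage and dye, were taken as 1 array from the series' design text; their deviations from the stage means correlated at 0.343 across probes. Detection counts were 187 and 165 probes in the differentiated and 203 and 138 in the proliferating samples, and having only 2 arrays limits precision. The fit was also run on simulated data, with larger changes than those of the pair and no dye effect. That run is no support for the values reported here. Named probes were the pair, the listed miRNAs and, for each of the pair, the 4 tested probes of smallest distance, of which 2 passenger strands in all were left out. The pair, lists, tests and alternatives were chosen with earlier results of these data known. The concentration of epidermal growth factor is not used here because the labels give it in conflicting units. Alternatives varied the background, the normalization, the filter, the spot summary, the detection limit and the terms for array and dye, used the authors' table, or left out samples.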

Additional observations from a re-analysis of the deposited data

How the results depend on the processing

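miR-205 was above 0 in 14 of 14 alternatives that kept all samples and was called in 1 of them, spike centring, at 1.60. miR-203 was above 0 in 13 of 13 and was called in 3, at 1.32 with plain subtraction, 0.88 with the authors' table and 1.89 with spike centring; its lowest value, 0.33, came from median centring on the tested probes, added after seeing the data. With spike centring the cause is the alternative's own construction, a shift of every ratio; plain subtraction drops normexp and the offset together; for the authors' table the cause was not tested. Leaving out 1 array gave -0.17 to 0.57 for miR-205, the lowest without replicate 2, where the direction turned, and 0.488 to 0.492 for miR-203, both values with no test. With no replicate block the ratios were the same by construction, with adjusted p-values of 0.641 for miR-205 and 0.204 for miR-203 (0.694 and 0.317 once dye was a covariate). Dropping 1 sample from that fit, which assumes that a lone sample varies as the other stage does, gave 0.0097 to 0.40 for miR-205 and 0.42 to 0.56 for miR-203, with 0 calls of either. miR-203 was not among the 118 probes detected in all 4 samples and has no value there. Detection of miR-203 ranged from 2 to 4 samples, and miR-205 was detected in 4 under every limit run.

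The calls over all probes, 29 higher and 23 lower, became 46 and 43 with offset 16, 48 and 37 under plain subtraction, 47 and 13 when centred on the median of all miRNA spots, 39 and 35 on that of the tested probes, 48 and 46 when loess used detected probes, 54 and 45 under quantile normalization, 138 and 8 under spike centring, 48 and 56 with the authors' table, 21 and 13 with no filter and 18 and 17 on probes detected in all 4 samples. The share of calls that were higher went to 78.3% with median centring on all miRNA spots and 94.5% with spike centring, from 55.8%. With no replicate block 32 rose and 27 fell, and leaving out 1 sample of that fit gave 26 to 40 higher and 21 to 32 lower. Signal over background limits miR-203 alone of the pair.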
